A study of Mus musculus with 6 samples.

Results

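The cytosolic ribosomal protein genes are the genes for the proteins of the large and small ribosomal subunits of the cytoplasm. They were taken from the deposited count table of E0771, a cell line from a mouse mammary carcinoma, as the protein-coding rows whose symbols follow the Rpl and Rps naming pattern, with Rpsa, Rplp0, Rplp1 and Rplp2 added and the Rps6k kinase genes left out. This rule uses names only and gave 81 genes of the 28063 in the table, 49 of the large subunit and 32 of the small subunit. Of these, 77 are the usual ribosomal genes, and the other 4 (Rpl3l, Rpl7l1, Rpl22l1 and Rps27l) are paralogs.

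The cells carried a control vector (Vector), wild-type Malt1 (Malt1_WT) or a form of Malt1 that the labels call PD without spelling the letters out (Malt1_PD), with 2 libraries in each of these 3 groups. All 3 groups had been through the same steps: 12 hours with activated CD8 T cells at 3 T cells per tumour cell, washing, trypsin, seeding again, and lysis 6 hours after that. There was no group without T cells, and each form of Malt1 was present in a single cell population, so form and population cannot be told apart. No label says whether both libraries of 1 group are from different cultures, and p-values therefore measure a spread that may be technical.

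Every ribosome holds 1 copy of most of these proteins, bound to ribosomal RNA, and their mRNAs are among the most abundant of a growing cell. Most of these mRNAs begin with a short run of pyrimidines at the cap, the 5′ terminal oligopyrimidine (TOP) tract, through which mTORC1 and the RNA-binding protein LARP1 control their translation and stability as a group. MALT1 is a scaffold and protease of NF-kB signalling and is not itself part of this machinery.

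The tract was looked for because it is the sequence feature by which the family is co-regulated. It was defined as a C followed by at least 7 bases that are each C or T, on the sense strand. RefSeq sequences around annotated gene starts (build GRCm38.p6) matched 61 of the 81 genes. A C that opens such a stretch lay exactly at an annotated start in 9 of 61 members, against 0.936% of 27025 genes. Bases before that C were not checked, so the pyrimidines can reach further upstream. Within 5 bases on either side of a start such a C was found in 21 of 61 members, against 5.17% of genes. On the opposite strand, which serves as the control, the counts were 1 and 2 of 61 members, against 1.42% and 6.59% of genes. Annotated starts can lie some bases from the start a cell uses, and a match is a string of letters and not a measured start. The 6 sequences below were chosen as examples and not as typical members. In Rps6, Rps18, Rpl38 and Rpl15 a C that opens such a stretch lies exactly at the annotated start, as in 9 of 61 members. The base just before this C is a pyrimidine in each of them, so the pyrimidine run itself begins upstream of the annotated start. In the paralog Rpl22l1 such a C lies 3 bases downstream of the annotated start, also behind a pyrimidine, and the paralog Rpl7l1 is without one. Each sequence runs 5′ to 3′ on the strand of the gene, from 10 bases before the annotated start to 20 bases from it. Capitals mark the stretch as read from the C.
Rps6 (chr4:86857348-86857377, minus strand): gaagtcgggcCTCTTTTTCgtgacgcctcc
Rps18 (chr17:33955646-33955675, minus strand): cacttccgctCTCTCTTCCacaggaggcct
Rpl38 (chr11:114668570-114668599, plus strand): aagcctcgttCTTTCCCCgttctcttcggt
Rpl15 (chr14:18270967-18270996, minus strand): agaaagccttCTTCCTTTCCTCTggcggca
Rpl22l1 (chr3:28805498-28805527, plus strand): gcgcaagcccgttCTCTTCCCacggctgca
Rpl7l1 (chr17:46782637-46782666, minus strand): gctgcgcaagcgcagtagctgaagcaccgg

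The libraries held between 14045390 and 19962014 counts, and a gene at the floor of 3 counts had at most 0.214 CPM, the count scaled to library size with TMM factors. Malt1 stood at 23.8 and 31.3 CPM in Vector, 67.2 and 82.1 in Malt1_WT, and 105.5 and 95.7 in Malt1_PD. T cell markers with a row in the table (7 of 9 listed) summed to between 3 and 16 counts per library, and none passed the filter on low counts. Of the epithelial markers, Krt8 stood at 108 to 124 CPM and Epcam at 6.16 to 8.97 CPM, while Krt18 and Cdh1 did not pass the filter. Among mesenchymal markers, Vim reached 3776 to 4645 CPM and Col3a1 444.5 to 456.5 CPM. Col1a1 was lower, at 31.0 and 36.4 CPM in Vector, 54.8 and 61.3 in Malt1_WT, and 56.8 and 53.0 in Malt1_PD.

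Ribosomal protein mRNAs made up 6.81% of all counts in Vector 1 and 5.32% in Vector 2. The shares were 6.19% and 5.38% for Malt1_WT, and 5.58% and 5.70% for Malt1_PD. The widest 95% Wilson interval around these shares was 6.18% to 6.20%, which covers counting error only. The gap between both Vector libraries was thus larger than any gap between group means, and both Malt1_PD values lay between the Vector values. Group means were 6.07% ± 1.05 in Vector, 5.78% ± 0.575 in Malt1_WT and 5.64% ± 0.0823 in Malt1_PD (SD, n = 2). In the exact permutation test over libraries (two-sided), p was 1.0 for each of the 3 pairs of groups, where the smallest p that 2 against 2 libraries allow is 0.33. In bulk RNA, fewer cells with much of this RNA and less of it per cell cannot be told apart.

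The balance between the subunits varied far less than the share. Counts of large subunit genes divided by those of small subunit genes came to 1.37 and 1.42 in Vector, 1.36 and 1.38 in Malt1_WT, and 1.39 and 1.40 in Malt1_PD. Exact permutation p-values for these ratios (two-sided) were 0.667 for Malt1_WT against Vector, 1.0 for Malt1_PD against Vector and 0.33 for Malt1_PD against Malt1_WT. The plot of the family by library shows the same order for both subunits, with Vector 1 and Malt1_WT 1 high, Vector 2 and Malt1_WT 2 low, and both Malt1_PD libraries between them.

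**Figure D1:**
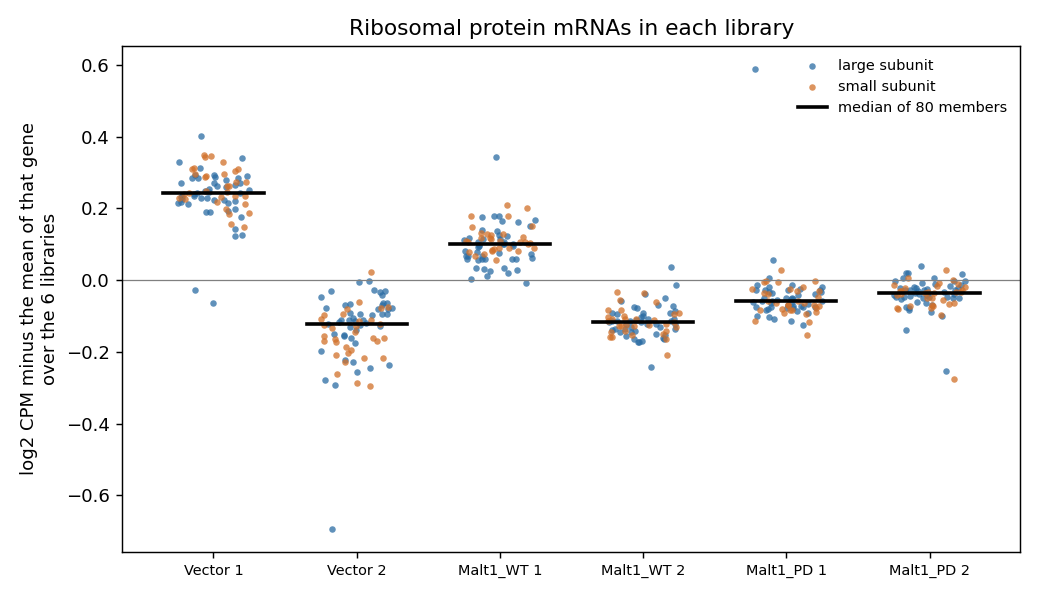
Each point is 1 of the 80 tested ribosomal protein genes in 1 library, as log2 CPM minus the mean of that gene over the 6 libraries, coloured by subunit, with the median as a bar. The family sits highest in Vector 1 and Malt1_WT 1 and lowest in Vector 2 and Malt1_WT 2. The libraries within Vector and within Malt1_WT thus stand further apart than the groups do, while those of Malt1_PD lie close together.

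No ribosomal protein gene passed the test in any comparison. Of the 81 genes, 80 passed the filter on low counts, and Rpl3l, a paralog of Rpl3 known from muscle, did not, with 3 and 2 counts in Vector, 1 and 5 in Malt1_WT, and 3 and 4 in Malt1_PD. Wild-type Malt1 against Vector gave 0 members higher and 0 lower in edgeR's quasi-likelihood test at a Benjamini-Hochberg adjusted p under 0.05 over 14675 genes, against a background of 0.00681% of genes called higher (1 gene, Cd274) and 0.0% called lower. Malt1_PD against Vector also gave 0 and 0, beside 0.00681% of genes higher (1 gene, Malt1) and 0.0% lower. Malt1_PD against Malt1_WT gave 0 and 0, beside 0.0% higher and 0.00681% lower (1 gene, Cd274). DESeq2's Wald test and limma-voom likewise called 0 members in each comparison. At an unadjusted p under 0.05 the edgeR fit held 0 members in each comparison, where it held 1041, 1264 and 282 of all genes in the same order. The smallest adjusted p of a member (edgeR, Benjamini-Hochberg) was 0.782 in Malt1_WT against Vector, 0.617 in Malt1_PD against Vector and 1.0 in Malt1_PD against Malt1_WT.

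The fold changes of the family were small and mostly of 1 sign. In Malt1_WT against Vector the median log2 fold change of members was -0.09, with 10 above 0 and 70 below, beside a median of -0.00 over all genes tested. In Malt1_PD against Vector it was -0.12, with 3 above and 77 below (all genes, -0.00), and in Malt1_PD against Malt1_WT it was -0.04, with 13 above and 67 below (all genes, -0.00). These comparisons share libraries and are not independent of one another. When libraries were scaled to the summed counts of the family, which sets its median near 0 by construction, the 3 medians were -0.00, -0.00 and 0.00. Large and small subunit genes had like medians, at -0.10 and -0.06 in Malt1_WT against Vector, -0.12 and -0.13 in Malt1_PD against Vector, and -0.03 and -0.05 in Malt1_PD against Malt1_WT.

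Few members separated the groups when single libraries were compared. Both Malt1_WT libraries lay below both Vector libraries for 0 members and above them for 2 (Rpl24 and Rpl7l1), where 17.1% and 15.5% of all tested genes did so. Both Malt1_PD libraries lay below both Vector libraries for 8 members, against 19.7% of all genes. These 8 were Rpl17, Rpl26, Rpl3, Rpl6, Rplp0, Rps10, Rps24 and Rps3a1. Only Rpl7l1 had both Malt1_PD libraries above both of Vector, against 18.4% of all genes. Against Malt1_WT, both Malt1_PD libraries were lower for 3 members (Rpl22l1, Rps10 and Rps27) and higher for Rpl7l1, where 16.1% and 16.0% of all genes were lower and higher. Instead, both Malt1_PD libraries lay inside the range of the Vector pair for 61 of 80 members (28.9% of all genes) and inside that of the Malt1_WT pair for 70 of 80 (25.9% of all genes).

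Among proteins of the small subunit, Rps6, the main phosphorylation target of the S6 kinases, stood at 741 and 588 CPM in Vector, 665 and 586 in Malt1_WT, and 604 and 606 in Malt1_PD. Its log2 fold change against Vector was -0.09 ± 0.12 (SE) in Malt1_WT and -0.14 ± 0.12 in Malt1_PD, with edgeR adjusted p-values (Benjamini-Hochberg) of 0.931 and 0.783. Vector 1 was the highest library for Rps6 and the other Vector library lay among those of the other groups. Rpsa, which encodes a protein known both from the ribosome and as the laminin receptor, had the same order, with 2116 and 1694 CPM in Vector, 1873 and 1638 in Malt1_WT, and 1745 and 1701 in Malt1_PD. Rps3, a protein of the mRNA entry channel, stood at 1812 and 1312 CPM in Vector, 1594 and 1329 in Malt1_WT, and 1386 and 1436 in Malt1_PD.

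Rps27a is made as a fusion of ubiquitin with a small subunit protein. It stood at 976 and 707 CPM in Vector, 839 and 665 in Malt1_WT, and 731 and 733 in Malt1_PD, and its log2 fold change against Vector was -0.16 ± 0.16 in Malt1_WT and -0.20 ± 0.16 in Malt1_PD (SE). Rps24 and Rps3a1 were among the members with the lowest fold changes in Malt1_PD against Vector, each at -0.21 ± 0.13 (edgeR adjusted p, Benjamini-Hochberg, 0.712 and 0.700). For Rps3a1, Vector gave 1263 and 992 CPM, and Malt1_PD gave 968 and 978, so the groups did not overlap but lay close. Rps14, at -0.21 ± 0.17, had 1055 and 735 CPM in Vector and 766 and 785 in Malt1_PD, inside the Vector pair. Rps4x, the X-linked form of Rps4, had 1491 and 1230 CPM in Vector, 1381 and 1229 in Malt1_WT, and 1290 and 1275 in Malt1_PD.

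In the large subunit, Rplp0, Rplp1 and Rplp2 form the stalk that recruits translation factors. Rplp0 stood at 2582 and 2170 CPM in Vector, 2317 and 2041 in Malt1_WT, and 2102 and 2111 in Malt1_PD, with a log2 fold change of -0.17 ± 0.10 (SE) in Malt1_PD against Vector. Rplp1 stood at 1221 and 835 CPM in Vector, 1068 and 929 in Malt1_WT, and 975 and 996 in Malt1_PD. The short stalk mRNAs thus had a wider gap between the Vector libraries than Rplp0, at 0.55 (Rplp1) and 0.54 (Rplp2) against 0.25 on the log2 scale. Rplp2 stood at 604 and 415 CPM in Vector, 557 and 463 in Malt1_WT, and 473 and 468 in Malt1_PD.

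Rpl5 and Rpl11 bind 5S ribosomal RNA and, when free of the ribosome, bind MDM2 and stabilise p53. Rpl5 stood at 1154 and 926 CPM in Vector, 1072 and 894 in Malt1_WT, and 973 and 978 in Malt1_PD. Rpl11 stood at 737 and 553 CPM in Vector, 659 and 540 in Malt1_WT, and 581 and 579 in Malt1_PD. For both genes the Malt1_PD libraries lay between the libraries of each other group, and log2 fold changes against Vector were between -0.15 ± 0.14 and -0.08 ± 0.12 (SE). Rpl10, which is added late to the large subunit and completes its P-site region, varied less, with 1188 and 1019 CPM in Vector, 1142 and 1038 in Malt1_WT, and 1071 and 1096 in Malt1_PD.

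The lowest fold changes of the large subunit were those of Rpl39, Rpl17 and Rpl3 in Malt1_WT against Vector. Rpl39, which lines the peptide exit tunnel, stood at 333 and 236 CPM in Vector, 269 and 213 in Malt1_WT, and 232 and 246 in Malt1_PD, a log2 fold change of -0.24 ± 0.17 (SE) for Malt1_WT and -0.25 ± 0.17 for Malt1_PD. The Vector 2 library was below Malt1_WT 1 and Malt1_PD 2, so the groups overlapped. Rpl17, also at the tunnel, stood at 647 and 519 CPM in Vector, 543 and 487 in Malt1_WT, and 517.0 and 517.5 in Malt1_PD, and its fold changes against Vector were -0.18 ± 0.11 and -0.17 ± 0.11. Rpl3, which lies near the peptidyl transferase centre, stood at 1529 and 1296 CPM in Vector, 1332 and 1187 in Malt1_WT, and 1229 and 1257 in Malt1_PD, and its fold changes were -0.17 ± 0.10 and -0.18 ± 0.10. Rpl3 had the smallest adjusted p of any large subunit gene in both comparisons, 0.782 and 0.643 (edgeR, Benjamini-Hochberg). Rpl41, which has the shortest coding sequence of the family at 75 nt, stood at 926 and 660 CPM in Vector, 842 and 670 in Malt1_WT, and 703 and 706 in Malt1_PD.

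Toward the upper end, Rpl36a had 424 and 301 CPM in Vector, 402 and 347 in Malt1_WT, and 362 and 369 in Malt1_PD, and Rpl37a had 524 and 361, 501 and 415, and 434 and 439 CPM. Their log2 fold changes against Vector were both 0.05 in Malt1_WT, and 0.01 and -0.02 in Malt1_PD, with SE of 0.15 for Rpl36a and 0.17 for Rpl37a. Rps19 had 598 and 471 CPM in Vector, 587 and 515 in Malt1_WT, and 536 and 523 in Malt1_PD, with log2 fold changes of 0.04 and -0.01 (SE 0.12). For all 3 genes the libraries of Malt1_PD lay inside both other pairs.

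The paralogs did not all follow their partners. Rpl7l1, which is related to Rpl7 and acts in the making of the large subunit, stood at 195 and 188 CPM in Vector, 203 and 197 in Malt1_WT, and 207 and 204 in Malt1_PD, with no overlap between any pair of groups. Its log2 fold change was 0.06 ± 0.07 in Malt1_WT and 0.10 ± 0.07 in Malt1_PD against Vector (SE), with edgeR adjusted p-values (Benjamini-Hochberg) of 0.920 and 0.758. Rpl7 itself stood at 1141 and 973 CPM in Vector, 1003 and 925 in Malt1_WT, and 988 and 987 in Malt1_PD, and its fold changes were -0.13 ± 0.09 and -0.10 ± 0.09. Vector 1 exceeded Vector 2 by 0.05 on the log2 scale for Rpl7l1, the smallest difference of the 80 members, and by 0.23 for Rpl7. When libraries were scaled to the summed counts of the family, Rpl7l1 was at 0.13 ± 0.16 and 0.20 ± 0.16 against Vector, with adjusted p-values (edgeR, Benjamini-Hochberg) of 1.0 and 0.993.

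Rps27l, a paralog of Rps27 known as a p53 target, stood at 137 and 97.4 CPM in Vector, 134 and 106 in Malt1_WT, and 115 and 116 in Malt1_PD. Rps27 stood at 367 and 249 CPM in Vector, 324 and 281 in Malt1_WT, and 269 and 277 in Malt1_PD, and thus was lower in both Malt1_PD libraries than in both of Malt1_WT (log2 fold change -0.15 ± 0.16, SE). Of the 100-nt stretches of Rps27 mRNA, 98.4% occur also in transcripts of another gene, mostly its retrogene copy Rps27rt, so its count is less certain than that of Rps27l, which shares none. Rpl22l1, a paralog of Rpl22, was sparse at 14.9 and 12.9 CPM in Vector, 15.2 and 13.96 in Malt1_WT, and 13.7 and 11.4 in Malt1_PD. Rpl22 stood at 480 and 353 CPM in Vector, 441 and 357 in Malt1_WT, and 370 in both Malt1_PD libraries. In Malt1_PD against Malt1_WT, Rpl22l1 had a log2 fold change of -0.22 ± 0.15 and Rpl22 one of -0.11 ± 0.15 (SE), both with an adjusted p of 1.0 (edgeR, Benjamini-Hochberg).

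The largest fold changes of the family belonged to genes with low counts. Rpl24 was counted 20 and 13 times in Vector, 21 and 23 times in Malt1_WT, and 28 and 18 times in Malt1_PD, or 0.728 to 1.77 CPM. Its log2 fold change was 0.49 ± 0.43 in Malt1_WT and 0.61 ± 0.43 in Malt1_PD against Vector (SE), with edgeR adjusted p-values (Benjamini-Hochberg) of 0.877 and 0.748. Rps10 was counted 186 and 162 times in Vector, 145 and 175 times in Malt1_WT, and 127 and 124 times in Malt1_PD, which gave 10.5 and 9.08, 10.3 and 8.73, and 8.03 and 7.37 CPM. Its log2 fold change of -0.34 ± 0.17 in Malt1_PD against Vector and -0.30 ± 0.17 against Malt1_WT was the lowest of the family in both, with adjusted p-values of 0.617 and 1.0 (edgeR, Benjamini-Hochberg). Rpl13a was low for its length too, at 61.9 and 44.2 CPM in Vector, 58.4 and 49.4 in Malt1_WT, and 49.9 and 51.0 in Malt1_PD, and its log2 fold changes were 0.02 ± 0.16 and -0.07 ± 0.16 against Vector (SE).

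Rpl24, Rps10 and Rpl13a were those members whose mRNA is mostly covered by another annotated gene on the same strand (GENCODE M21). The overlap was 91.6% of the mRNA for Rps10 (chr17:27630418-27636669, with the read-through gene RPS10-NUDT3), 71.5% for Rpl24 (chr16:55966275-55971435, with Gm28037) and 59.3% for Rpl13a (chr7:45125558-45128761, with Gm45713). The next member had 10.7%. How reads in such shared stretches were assigned is not given in the sources used here, and the part of the overlap in these counts was not tested. Levels and fold changes of these 3 genes therefore describe the deposited counts only. Near-identical copies may bear on more of the family. At the median, 40.6% of the 100-nt stretches of a member's mRNA occur in transcripts of other genes, with over 50% in 32 members and none in 7. Reads were sequenced at 150 nt, longer than these stretches, so a shared stretch does not by itself make a read ambiguous. On the opposite strand, 68.3% of the mRNA of Rpl35 and 55.4% of that of Rpl23a are overlapped, and the strand setting of the counting is not given either.

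Compared per length, the middle part of the family, between the quartiles, stood within a narrow range. Levels were expressed as RPKM, CPM per kilobase of mRNA (the principal GENCODE M21 transcript), averaged over the 6 libraries. Without the 3 overlapped genes and the paralogs, 74 members had a median of 858 RPKM, and the quartiles lay at 714 and 1207 RPKM, a ratio of 1.69. Rps2 (2903 RPKM), Rpl13 (2853), Rpl32 (2028), Rpl8 (2022) and Rplp1 (2012) were highest. The median was 791 RPKM for 44 large subunit genes and 970 RPKM for 30 small subunit genes. Rps20 was lowest at 124.5 RPKM, a value that rests on an mRNA model of 3706 nt around a coding sequence of 357 nt; its CPM of 401 to 545 lie well inside the family.

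The paralogs and the overlapped genes stood below all of these except Rps20. Rps27l had 236 RPKM, Rpl7l1 152, Rpl13a 50.1, Rpl22l1 24.8, Rps10 18.1, Rpl24 1.81 and Rpl3l 0.125. The length matters here: with the gene lengths deposited by the authors, whose median over members is 1770 nt against 729 nt for the mRNA, the median of the 74 was 381 RPKM and the quartile ratio 2.61. With those lengths Rplp1 (2012 RPKM) was highest and Rpl35a (96.1 RPKM) lowest, Rpl35a having a deposited length of 3526 nt and an mRNA of 491 nt. The order of the members was nearly the same in every library, with Spearman's rho between 0.978 and 0.998 over the 15 pairs of libraries (a description across genes).

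**Figure D2:**
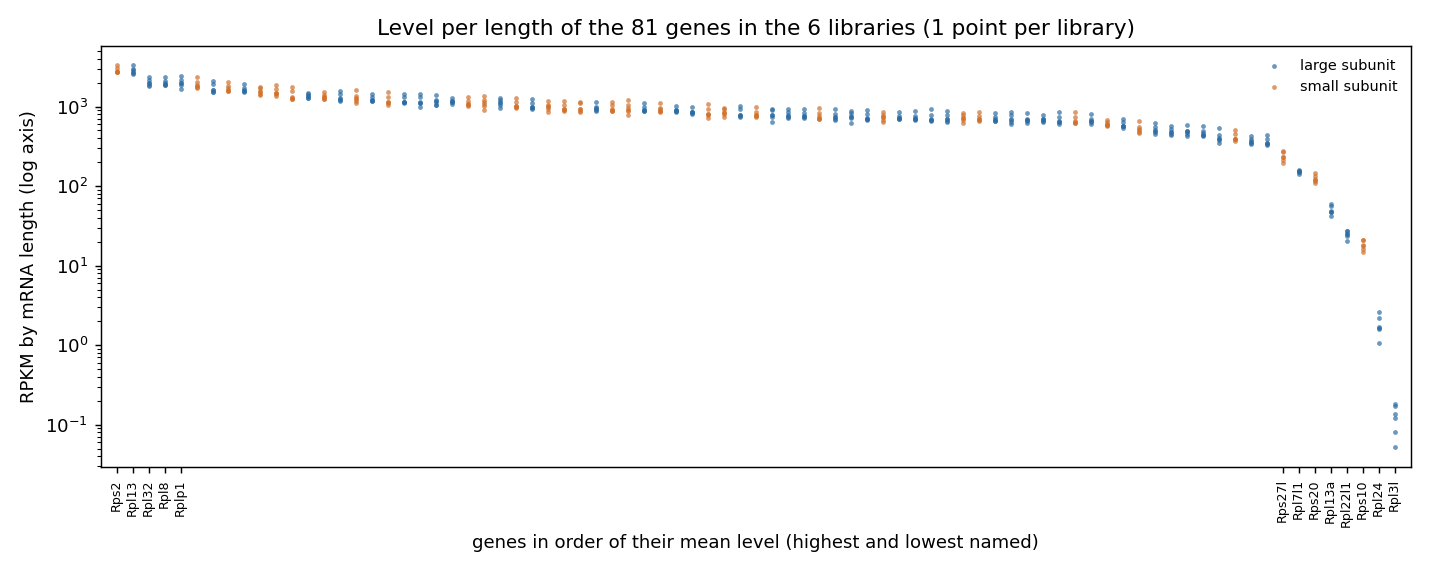
The level of each of the 81 genes is shown on a log axis as RPKM by mRNA length, with 1 point per library and genes ordered by their mean. The quartiles of the 74 genes left without the overlapped genes and the paralogs lie at 714 and 1207 RPKM. The right end holds Rps20, the paralogs and Rpl13a, Rps10 and Rpl24.

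The difference between libraries of 1 group ran through the family as a whole. Vector 1 was higher than Vector 2 for 80 of 80 members, by 0.05 to 0.64 on the log2 CPM scale (median 0.375), while it was higher for 52.4% of all genes (median 0.01). Malt1_WT 1 was higher than Malt1_WT 2 for 80 of 80 members, by 0.04 to 0.39 (median 0.212), against 51.7% of all genes. In Malt1_PD, replicate 1 was higher for 22 of 80 members (median -0.02, range -0.09 to 0.68), against 50.2% of all genes. Rps21 had the widest gap in Vector, with 476 CPM in Vector 1 and 305 in Vector 2, then 414 and 342 in Malt1_WT and 354 and 376 in Malt1_PD. The highest Malt1_PD value, 0.68, was that of the sparse Rpl24.

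In Vector, short mRNAs had the larger differences. There, the median difference was 0.49 for 18 members with an mRNA under 500 nt, 0.40 for 23 members of 500 to 750 nt, 0.33 for 21 members of 750 to 1000 nt and 0.35 for 18 longer ones. In Malt1_WT the 4 medians were 0.24, 0.25, 0.19 and 0.19, and in Malt1_PD they lay between -0.02 and -0.01. Spearman's rho between difference and mRNA length across the 80 members was -0.49 in Vector, -0.32 in Malt1_WT and -0.046 in Malt1_PD, and over all genes tested it was -0.51, -0.38 and 0.015. The points share the same pair of libraries, so these values are descriptions. With deposited gene lengths, rho across members was -0.23, 0.082 and 0.05. Members are short, with a median mRNA of 729 nt against 2421 nt for all genes tested. When the trend of each library with mRNA length, fitted over all genes, was taken out, the median difference of members was 0.036 in Vector, 0.028 in Malt1_WT and -0.011 in Malt1_PD, and replicate 1 was higher for 58, 53 and 32 of 80. The Spearman correlation of members with mRNA length was then 0.42 in Vector and 0.35 in Malt1_WT. With the trend along deposited gene length taken out instead, more of the difference was left, at 0.151, 0.087 and -0.014, and replicate 1 was higher for 68, 71 and 29 of 80. The correction by mRNA length was chosen after the data had been seen. What made libraries differ along mRNA length was not tested.

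**Figure D3:**
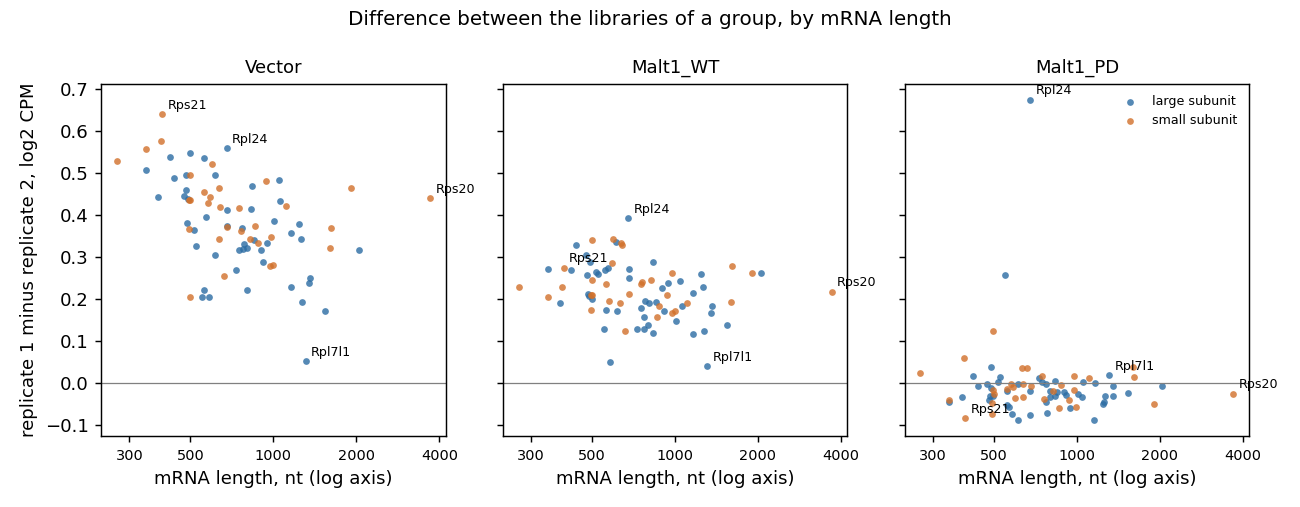
For each of the 80 tested genes, the difference between replicate 1 and replicate 2 in log2 CPM is plotted against mRNA length (log axis), with 1 panel per group. All points lie above 0 in Vector and Malt1_WT, and in Vector higher for short mRNAs, with Rpl7l1 lowest in Vector, whereas most Malt1_PD points lie close to 0.

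The sign of the family's median turned with some choices of library. Without Vector 1, the median log2 fold change of members against Vector was 0.11 in Malt1_WT and 0.07 in Malt1_PD, and edgeR called 0 members. Without Vector 2, it was -0.25 and -0.29. In that fit 31 of 80 members were called lower in Malt1_PD than in Vector 1, beside 1.83% of all genes, and 3 (Rpl17, Rpl34 and Rpl39) in Malt1_WT, beside 0.854% of all genes. The lone Vector library is assumed there to vary like the other groups. Without Malt1_WT 1, the median of Malt1_PD against Malt1_WT was 0.07, and without Malt1_WT 2 it was -0.14. With both Vector libraries kept, the median of Malt1_WT against Vector was -0.19 without Malt1_WT 1 and 0.03 without Malt1_WT 2, with 53 of 80 members above 0 in the latter.

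With Vector 1 and Malt1_WT 1 both left out, 35 members were called higher and 1 lower in Malt1_PD against Vector, beside 6.23% of all genes called higher. The spread in that fit comes from the Malt1_PD pair alone, which was the closest of the 3 pairs for these genes. With the trend along mRNA length removed, medians were -0.06 in Malt1_WT and -0.09 in Malt1_PD against Vector and -0.02 between the Malt1 forms, and edgeR called 0 members in each. Standard errors were smaller in that fit, 0.03 in place of 0.10 for Rps2, and 14, 31 and 2 of 80 members had an unadjusted p under 0.05, beside 12.5%, 14.8% and 3.75% of all genes in that fit. The lowest adjusted p (edgeR, Benjamini-Hochberg) was 0.0919, for Rpl34 in Malt1_PD against Vector, at -0.20 ± 0.05 (SE). Of the 31 members in that comparison, 30 had a fold change below 0, and Rpl7l1 was at 0.15 ± 0.06.

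**Figure D4:**
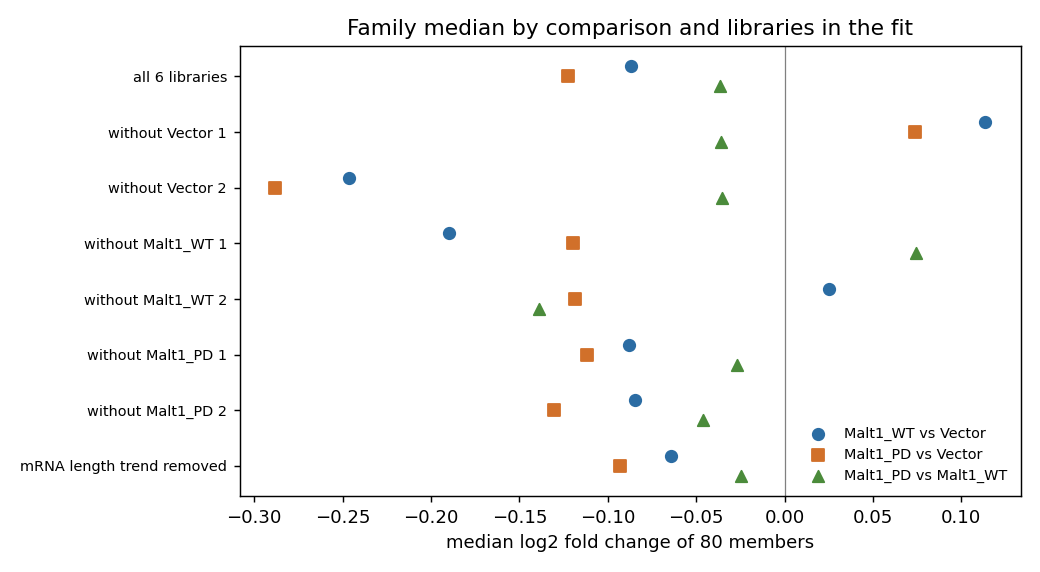
The median log2 fold change of the 80 tested members is shown for each comparison with all 6 libraries, with 1 library left out, and with the trend along mRNA length removed. The medians against Vector move from -0.29 and -0.25 without Vector 2 to 0.07 and 0.11 without Vector 1.

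Related gene lists, chosen by function, were set beside the family. None of their members passed the edgeR test in any comparison. Of 77 mitochondrial ribosomal proteins, which are encoded in the nucleus and build a separate ribosome, the median log2 fold change was -0.04 in Malt1_WT and -0.05 in Malt1_PD against Vector, and 76 of 77 were higher in Vector 1 than in Vector 2 (median 0.267). Their lowest unadjusted p in Malt1_WT was that of Mrpl4, with 47.0 and 41.3 CPM in Vector and 58.2 and 52.6 in Malt1_WT (0.33 ± 0.10, edgeR adjusted p 0.546, Benjamini-Hochberg). Mrps10 stood at 59.1 and 49.7 CPM in Vector and 41.9 and 45.7 in Malt1_PD (-0.31 ± 0.11, adjusted p 0.525).

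Of 22 translation factors and other genes with TOP mRNAs, 20 lay below 0 in Malt1_WT and 21 in Malt1_PD against Vector, with medians of -0.09 and -0.08. The translation factors Eef1a1 and Pabpc1 had Vector libraries that lay closer together than those of most ribosomal protein genes. Eef1a1, which brings aminoacyl-tRNA to the ribosome, stood at 8309 and 7803 CPM in Vector, 7248 and 6888 in Malt1_WT, and 7157 in both Malt1_PD libraries (-0.19 ± 0.06 and -0.17 ± 0.06, edgeR adjusted p 0.562 and 0.506, Benjamini-Hochberg). Pabpc1, the poly(A)-binding protein, stood at 3398 and 3464 CPM in Vector, 3006 and 3056 in Malt1_WT, and 2957 and 3014 in Malt1_PD (-0.18 ± 0.06 and -0.20 ± 0.06, adjusted p 0.574 and 0.419). Both genes, picked for their small p, were lower in all 4 Malt1 libraries than in both Vector libraries without passing the test. Of all genes, 17.1% were lower without overlap in Malt1_WT and 19.7% in Malt1_PD, each group taken alone. The share lower in both groups at once was not counted. Fau, whose product is a fusion that contains a small subunit protein, followed the ribosomal proteins, with 833 and 639 CPM in Vector, 750 and 655 in Malt1_WT, and 670 and 699 in Malt1_PD.

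Genes for making ribosomes had medians of the other sign. Of 34 ribosome biogenesis genes, 21 lay above 0 in Malt1_WT and 27 in Malt1_PD against Vector, with medians of 0.03 and 0.09. Nop2, a methyltransferase of ribosomal RNA, stood at 270 and 269 CPM in Vector, 311 and 306 in Malt1_WT, and 312 and 325 in Malt1_PD (0.19 ± 0.07 and 0.24 ± 0.07, edgeR adjusted p 0.641 and 0.443, Benjamini-Hochberg). Rrp12, which acts in subunit maturation, stood at 61.0 and 67.6 CPM in Vector, 73.4 and 75.5 in Malt1_WT, and 75.2 in both Malt1_PD libraries (0.21 ± 0.09 and 0.22 ± 0.09). Both genes, picked for their small p, were higher in all 4 Malt1 libraries than in both Vector libraries. Of all genes, 15.5% were higher without overlap in Malt1_WT and 18.4% in Malt1_PD, each group taken alone. The share higher in both groups at once was not counted. Ddx10, an RNA helicase of the same list with its smallest p in Malt1_WT against Vector, separated the other way, with 68.0 and 65.4 CPM in Vector, 57.2 and 52.5 in Malt1_WT, and 57.7 and 64.4 in Malt1_PD (-0.28 ± 0.10 in Malt1_WT, edgeR adjusted p 0.579, Benjamini-Hochberg). The Vector libraries differed in the opposite sense from the ribosomal proteins for Rrp12, and hardly at all for Nop2. Over these 34 genes, whose mRNAs are longer (median 2499 nt), Vector 1 exceeded Vector 2 by a median of 0.097.

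Of 14 RNA polymerase I genes, medians against Vector were 0.04 in Malt1_WT and 0.01 in Malt1_PD. Cd3eap, a subunit of that enzyme, stood at 34.0 and 32.2 CPM in Vector, 47.5 and 38.1 in Malt1_WT, and 41.4 and 42.9 in Malt1_PD (0.37 ± 0.12 and 0.35 ± 0.12, edgeR adjusted p 0.574 and 0.504, Benjamini-Hochberg). Of 24 tested regulators of ribosomal protein mRNA, including the mTOR pathway and Myc, medians were 0.06 and 0.04. Larp1, the TOP-binding protein, stood at 548 and 587 CPM in Vector, 628 and 631 in Malt1_WT, and 598 and 599 in Malt1_PD (0.15 ± 0.07 in Malt1_WT, adjusted p 0.733). Myc, a general activator of ribosomal genes, stood at 526 and 520 CPM in Vector, 552 and 557 in Malt1_WT, and 513 and 516 in Malt1_PD. Of 8 tested host RNAs of small nucleolar RNAs, whose mRNAs also carry TOP tracts, 8 lay below 0 in both Malt1 groups against Vector, with medians of -0.16 and -0.18. Gas5 stood at 175 and 141 CPM in Vector, 147 and 130 in Malt1_WT, and 140 and 145 in Malt1_PD, with Vector 1 the highest library as for the ribosomal proteins.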

How the data were processed

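RNA was sequenced in 6 libraries of E0771 cells, 2 per group. The authors deposited raw counts per gene, gene lengths and log2 RPKM values in 1 table. Per the submitters' processing notes, reads were processed with featureCounts 1.6.3, STAR 2.7.3a and Trim Galore 0.6.0, and the build was GRCm38.p6. The sources used here give no annotation version and no strand setting. The deposited log2 RPKM of the Malt1_PD pair could be recomputed from the counts (prior count 1) within 1e-06 for 28063 genes, and 4 further log2 columns with repeated names were not used. 

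The test was edgeR 4.0.16 (R 4.3.3) on the counts, with filterByExpr by group, TMM, glmQLFit and glmQLFTest. The fit held all 6 libraries, 1 mean for each group and no covariate, with p-values adjusted by Benjamini-Hochberg over 14675 genes. SE come from the quasi-likelihood F. The common dispersion was 0.0101 (coefficient of variation 10.1%, 3 residual degrees of freedom). The method was also run on simulated counts with a smaller dispersion than that of the data, and no result here rests on that run. Alternatives were DESeq2 1.42.0 size factors and Wald test, limma-voom (limma 3.58.1), no filter, only the 2 groups compared, protein-coding genes only, scaling to the family's counts, leaving out libraries, the replicate number as a block, a fold change minimum and removal of the trend with gene length (lowess span 0.3). mRNA lengths and overlaps come from GENCODE M21, which matched 28056 of 28063 identifiers. 

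The genes, the gene lists and the rule for naming members were chosen with earlier results of these data known. The rule took members fixed by role, paralogs with partners, the 5 highest and 5 lowest fold changes and levels, untested members, and up to 3 genes with the smallest p per list. Not every gene it took, and not every member, is reported here.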

Additional observations from a re-analysis of the deposited data

How the results depend on the processing

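In 19 alternatives, 35 named members gave 132 of 1365 values of the other sign in settings with all or several libraries and 117 of 630 with 1 library left out. Numbers of all genes called in Malt1_WT against Vector were 1 in the edgeR fit, 113 without the filter, 28 by DESeq2, 56 with the trend along deposited length removed, 129 along mRNA length, and 198 and 223 for these with the replicate block. In Malt1_PD against Vector they were 1, 188, 42, 91, 161, 253 and 292, and 0 with scaling to the family. In Malt1_PD against Malt1_WT 12 were called without the filter, against 1. Leaving out 1 library gave 1 to 599 and 0 to 928 genes in the first 2 comparisons, with 0 to 3 and 0 to 31 members, and medians from -0.246 to 0.113 in Malt1_WT against Vector, from -0.288 to 0.0740 in Malt1_PD against Vector, and from -0.139 to 0.0743 in Malt1_PD against Malt1_WT. Differences between replicates correlated at 0.682 between Vector and Malt1_WT over 9573 genes. With Malt1_PD the correlations were -0.00887 for Vector and 0.0293 for Malt1_WT. Replicates 1 and 2 thus differed alike in Vector and Malt1_WT, and Malt1_PD did not share this difference. The replicate block gave 6 genes in Malt1_WT and 9 in Malt1_PD against Vector, with 0 members. Scaling to the family moved the median of all genes to 0.07 in Malt1_WT and 0.10 in Malt1_PD against Vector.

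Without Vector 1 and Malt1_WT 1 together, genes called were 936 in Malt1_WT against Vector, 2080 in Malt1_PD against Vector and 358 in Malt1_PD against Malt1_WT, members called were 13, 36 and 14, and medians in the last 2 were 0.076 and 0.074. Of these members, 5, 34 and 9 were called with the sign opposite to that with 6 libraries. Only those taken by the naming rule and reported here follow, with the range over each single library left out in brackets. In Malt1_WT against Vector they were Rplp1 0.15 (-0.29 to 0.26) and Rps27 0.18 (-0.27 to 0.28). In Malt1_PD against Vector they were Rpl10 0.091 (-0.13 to 0.088), Rpl13 0.10 (-0.23 to 0.10), Rpl31 0.13 (-0.25 to 0.13), Rpl36 0.23 (-0.21 to 0.23), Rpl37a 0.28 (-0.26 to 0.27), Rpl41 0.10 (-0.39 to 0.094), Rpl5 0.077 (-0.24 to 0.075), Rplp1 0.24 (-0.30 to 0.24), Rplp2 0.18 (-0.35 to 0.18), Rps19 0.17 (-0.17 to 0.17), Rps27 0.13 (-0.42 to 0.13), Rps27l 0.25 (-0.25 to 0.24), Rps3 0.11 (-0.36 to 0.10) and Rps4x 0.063 (-0.21 to 0.061). In Malt1_PD against Malt1_WT they were Rpl39 0.16 (-0.17 to 0.16), Rpl5 0.13 (-0.14 to 0.13), Rplp0 0.047 (-0.14 to 0.047), Rps27a 0.14 (-0.20 to 0.14), Rps3 0.087 (-0.18 to 0.087) and Rpsa 0.074 (-0.12 to 0.074). The fit without Vector 1 and Malt1_WT 1 held 15220 genes, 80 of them members. Its spread comes from the Malt1_PD pair alone, and its member median in Malt1_WT against Vector was 0.004. The cause of these turns of sign was not tested. Depth limits Rpl24 (13 to 28 counts per library) and Rpl3l (1 to 5), and the other members had at least 124 counts.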

Other observations

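Processed pseudogenes of ribosomal proteins are intronless copies of these mRNAs. The 205 rows of this kind took 0.115% and 0.0787% of the counts in Vector, 0.116% and 0.0969% in Malt1_WT, and 0.109% and 0.107% in Malt1_PD. Of these, 126 passed the filter on low counts, and 0 passed the edgeR test in any comparison. At an unadjusted p under 0.05 there were 3 in Malt1_WT against Vector, 6 in Malt1_PD against Vector and 1 in Malt1_PD against Malt1_WT. Of all 14675 genes tested, 1041, 1264 and 282 had such a p in the same order. Their median log2 fold change was 0.12 in Malt1_WT and 0.16 in Malt1_PD against Vector, with 96 and 98 of 126 above 0, where the ribosomal protein genes had medians of -0.09 and -0.12. In Vector, replicate 1 exceeded replicate 2 for 120 of 126 pseudogenes (median 0.58), and their median length was 468 nt. Reads from a ribosomal protein mRNA and its pseudogenes are hard to tell apart, and the assignment of such reads was not tested.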
